A study of Mus musculus with 6 samples.

Results

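The unfolded protein response and the integrated stress response were followed in mouse prefrontal cortex through 32 genes chosen by symbol: chaperones and folding enzymes of the endoplasmic reticulum (ER), genes of ER-associated degradation, the stress sensors with their ER transcription factors, and the arm that runs through ATF4. All 32 symbols were found among 54429 rows per library, and all 32 were among the 24419 genes kept for testing. Bulk RNA, as ribosome-depleted total RNA, came from prefrontal cortex of mice aged 6 to 8 weeks. Per the labels, 3 libraries (GFP replicates 1 to 3) came from mice given AAV9 with GFP and 3 (Kmt5b shRNA replicates 1 to 3) from mice given AAV9 with a short hairpin RNA against Kmt5b, a methyltransferase of histone H4 lysine 20. AAV9 is an adeno-associated virus that transduces many brain cells. The labels give every sample the genotype C57BL6/J, whereas the design text names a cross of C57BL/6 and C3H and counts only 2 control mice, so the 3 GFP libraries may not be 3 animals and p-values measure only the spread between libraries. The promoter of the hairpin and the share of cells transduced are not given in the sources used here.

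When unfolded proteins build up in the ER, 3 sensors in its membrane respond. IRE1 (gene Ern1) splices Xbp1 mRNA, ATF6 is cut to release a transcription factor, and PERK (gene Eif2ak3) phosphorylates the translation factor eIF2. The kinase GCN2 (gene Eif2ak4) phosphorylates the same factor when amino acids are short, and both kinases thereby favour translation of ATF4, which is known to induce Ddit3, Trib3, Chac1, Asns and other stress genes. Neurons make large amounts of membrane and secreted protein and keep abundant ER chaperones even when unstressed. Gene counts do not separate spliced from unspliced Xbp1 and do not show phosphorylation or translation, so only transcript levels are described.

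The 6 libraries held 29490771 to 74723284 counts. Kmt5b itself was at 86.5, 79.7 and 81.0 CPM (each library's counts scaled to a common total, with TMM normalization) in the GFP libraries and 68.5, 80.3 and 63.9 CPM in the libraries labelled Kmt5b shRNA, a log2 fold change of -0.22 ± 0.10 (SE, edgeR quasi-likelihood adjusted p = 0.303). Kmt5b shRNA replicate 2 lay inside the GFP range, and group names and directions below follow the labels. Summed neuron markers ran from 6755 to 8391 CPM over the 6 libraries. Astrocyte markers summed to 5013 to 5158 CPM in the GFP libraries and 4330 to 4907 CPM in the other group, without overlap. Of these, 2 of 10 passed as lower, Aqp4 (log2 fold change -0.64, edgeR adjusted p = 0.00178) and Gja1 (-0.51, edgeR adjusted p = 0.0114). Gfap (0.385), Sox9 (0.264) and Fgfr3 (0.134) were above 0 without passing, and the other astrocyte markers were below 0. Slc1a2, the largest part of the sum, was at 2417 to 2988 CPM with overlapping groups. Oligodendrocyte markers summed to 2929 to 4520 CPM against 1617 to 3416 CPM, lowest in Kmt5b shRNA replicate 1, and 0 of 10 passed. Of 8 precursor markers 1 passed as higher, Olig2 (0.54, adjusted p = 0.0211). The part of these markers in the values below was not tested. Over all genes, 2066 passed an adjusted p of 0.05 with counts as deposited and 625 when the counts of intronless copies were added to their parent genes. Of the 32 stress response genes, 30 share no stretch of 200 nucleotides, or of 50% of their own length, with another coding gene or pseudogene. The exceptions were Calr and Dnajb9, with 1 processed pseudogene each. The Calr copy held 8 to 68 counts per library beside 11257 to 31317 for Calr, and the Dnajb9 copy 0 to 34.

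None of the 32 genes passed an adjusted p of 0.05 in either direction (edgeR), where 8.46% of all genes tested passed. Without adjustment, 3 were higher and 3 lower at p under 0.05, which is 18.8% of the members against 17.4% of all genes tested (7.2% higher and 10.2% lower). Atf4, Atf3 and Chac1 were the higher ones and Herpud1, Edem1 and Ern1 the lower ones. When only the 12405 genes without shared sequence were fitted, 0 of 30 members passed after adjustment against 0.709% of those genes, and 4 of 30 (13.3%) had an unadjusted p under 0.05 against 14.7%. With copies added to their parent genes, 0 of 32 passed against 2.76%. The CPM ranges of the groups were apart for 1 member upward, Trib3, and 1 downward, Herpud1. Each is 3.12% of the members, where 9.84% of all genes tested were apart upward and 12.7% downward. The median log2 fold change of the 32 members was 0.03, and 22 were above 0. Over all genes tested the median was -0.02, with 47.3% above 0. DESeq2 also called 0 members.

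**Figure D1:**
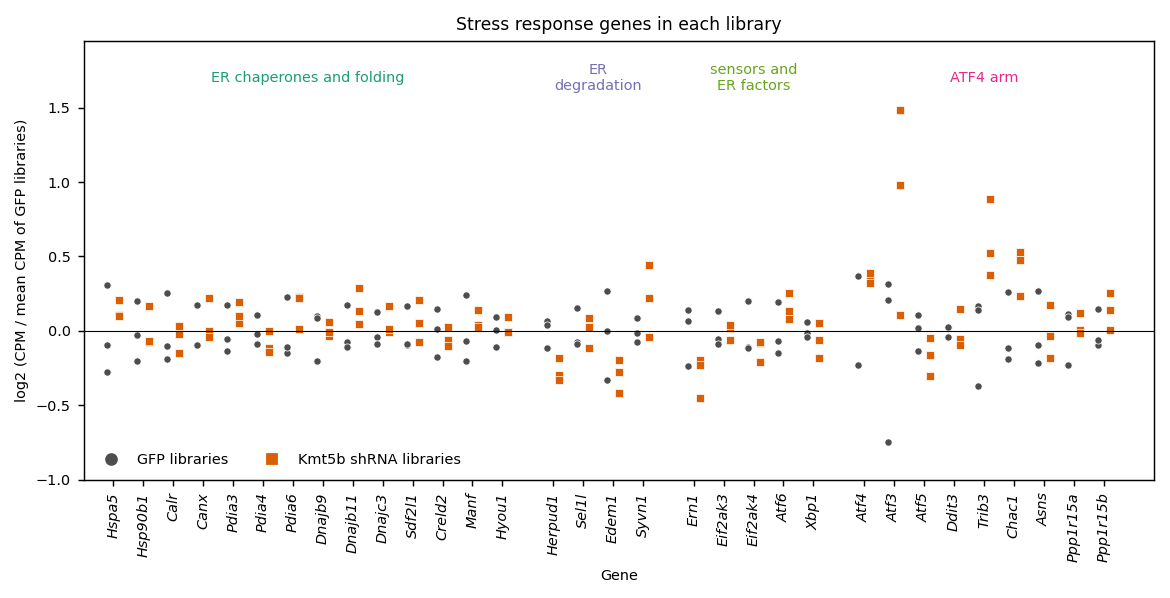
Level of each of the 32 genes in each library as log2 of CPM over the mean CPM of the 3 GFP libraries (circles, GFP; squares, Kmt5b shRNA). Chaperones lie near 0 in both groups, Herpud1 squares all lie below the GFP circles, and Trib3 squares all lie above them.

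**Figure D2:**
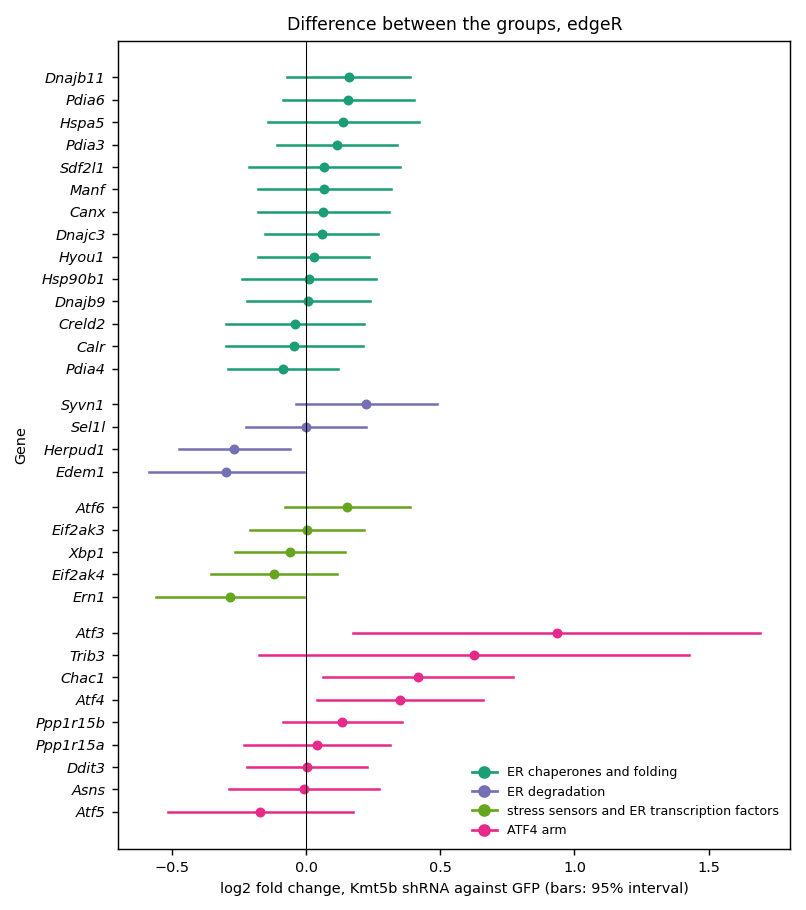
The log2 fold change of each gene, Kmt5b shRNA against GFP, with its 95% interval from edgeR, coloured by list. The intervals of all 14 chaperones include 0, and the widest intervals belong to Atf3 and Trib3, the members with the fewest counts.

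Some promoters of these genes hold short elements known from the ER arm or from the ATF4 arm, and windows around a few of them are shown so that the letters can be read beside the values. RefSeq promoters (GRCm38.p6, 250 bases before to 50 after the start) were matched by symbol for 28 of the 32 genes. The ER stress element ERSE, CCAAT and CCACG separated by 9 bases, is bound by NF-Y together with ATF6 or XBP1. ERSE-II is ATTGG, any base, then CCACG. The C/EBP-ATF element CARE, which ATF4 binds, was searched as TGATGNAA, on the other strand TTNCATCA. All were searched on both strands, and none of the matches in these members overlapped another. Windows are printed 5′ to 3′ on the strand of the gene, with the fixed letters of the motif in capitals. ERSE is shown in Hspa5 (chr2:34772000-34772068, plus strand) and Syvn1 (chr19:6046507-6046575, plus strand), ERSE-II with CARE in Herpud1 (chr8:94386292-94386412, plus strand), and CARE in Atf3 (chr1:191183411-191183468, minus strand), Trib3 (chr2:152344014-152344071, minus strand), Chac1 (chr2:119351024-119351081, plus strand) and Asns (chr6:7693200-7693257, minus strand).
Hspa5: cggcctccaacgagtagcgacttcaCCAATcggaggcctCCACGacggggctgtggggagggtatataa
Syvn1: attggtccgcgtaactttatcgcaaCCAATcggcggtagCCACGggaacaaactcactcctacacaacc
Herpud1: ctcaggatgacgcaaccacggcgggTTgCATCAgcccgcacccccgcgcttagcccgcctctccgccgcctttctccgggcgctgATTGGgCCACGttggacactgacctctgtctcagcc
Atf3: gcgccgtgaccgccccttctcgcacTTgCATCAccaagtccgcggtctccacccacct
Trib3: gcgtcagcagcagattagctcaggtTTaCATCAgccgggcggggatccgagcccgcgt
Chac1: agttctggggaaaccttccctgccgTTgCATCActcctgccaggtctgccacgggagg
Asns: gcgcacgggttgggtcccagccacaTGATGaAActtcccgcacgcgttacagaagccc

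ERSE was present in a promoter of 8 of the 28 genes (Hspa5, Hsp90b1, Calr, Canx, Pdia6, Dnajc3, Creld2 and Syvn1). It was present in 0.119% of all 32851 promoters searched. Members were counted by gene and all promoters singly, so these shares are not in the same unit. ERSE-II was present in Dnajb11 and Herpud1, and in 0.0365% of all promoters. CARE was present in 5 (Herpud1, Atf3, Trib3, Chac1 and Asns) and in 3.97% of all promoters. A match is a description of these letters and not a measured binding site. The 8 genes with ERSE had log2 fold changes from -0.04 to 0.22 with a median of 0.06. The 10 genes with ERSE or ERSE-II ran from -0.27 to 0.22. The 5 genes with CARE had a wider spread, from -0.27 for Herpud1 to 0.93 for Atf3 with a median of 0.42, and Asns, at -0.01, lay between these ends. The highest values with CARE were those of Atf3 (SE 0.35) and Trib3 (SE 0.37), the members with the fewest counts. No gene with CARE passed the adjusted threshold, and the part of low counts in this spread was not tested. The 14 members with none of the 3 motifs ran from -0.30 to 0.35 with a median of 0.00. The same element thus stood in genes with log2 fold changes above, below and near 0.

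**Figure D3:**
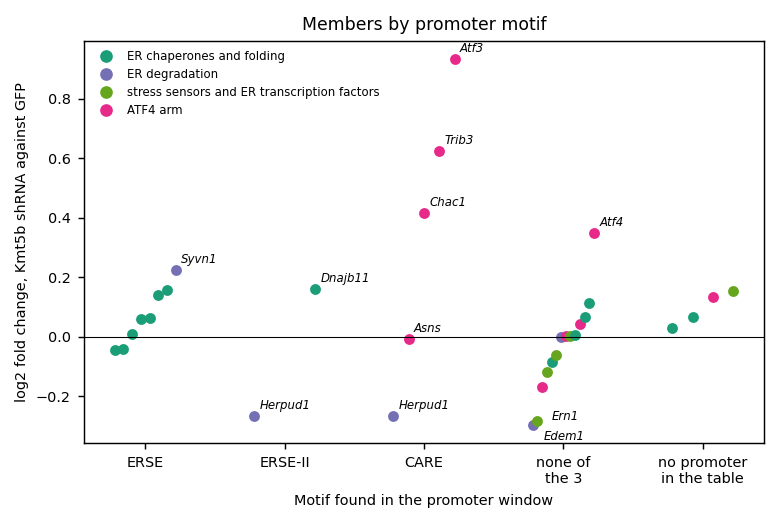
The log2 fold change of each member (Kmt5b shRNA against GFP, vertical axis) by the motif found in its promoter window (horizontal axis), coloured by list. Genes with ERSE lie between -0.04 and 0.22, whereas genes with CARE spread from -0.27 to 0.93. The highest with CARE, Atf3 and Trib3, are the members with the fewest counts. Herpud1 has 2 motifs and is drawn under both.

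ER chaperones and folding enzymes differed little between the groups relative to the spread among libraries. None of the 14 passed at adjusted or unadjusted p under 0.05, with 11 above 0 and 3 below, a median log2 fold change of 0.06 and single values from -0.09 (Pdia4) to 0.16 (Dnajb11). Per length, the most abundant were Calr and Canx, the paired lectin chaperones calreticulin and calnexin that hold glycoproteins during folding, at 134.5 and 132.7 CPM per kilobase of exon, averaged over the 6 libraries. Calr was at 468, 366 and 345 CPM in the GFP libraries and at 387, 403 and 355 CPM in the Kmt5b shRNA group. Its GFP range enclosed all 3 Kmt5b shRNA values, and its log2 fold change was -0.04 ± 0.12 (SE). Canx was at 687, 570 and 569 CPM against 609, 709 and 592 CPM, again with overlapping groups (0.06 ± 0.11).

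Hspa5 encodes BiP, the ER Hsp70 that binds unfolded chains and holds the sensors inactive, and its transcript is the usual readout of the ER arm. Its values were 426, 323 and 285 CPM in the GFP libraries and 371, 397 and 369 CPM in the Kmt5b shRNA group, a log2 fold change of 0.14 ± 0.13 (SE, edgeR adjusted p = 0.693, two-sided exact permutation p = 0.5). GFP replicate 1 was the highest of the 6 and GFP replicate 3 the lowest, so the Kmt5b shRNA values lay inside the GFP range. Without GFP replicate 1 the log2 fold change of Hspa5 was 0.32 with an adjusted p of 0.0737, and without GFP replicate 3 it was 0.02. The 95% interval of Hspa5 ran from a fold of 0.907 to 1.34. Among all 14 chaperones no interval reached above this 1.34 or below a fold of 0.812, the lower bound of Calr. Hsp90b1, the ER Hsp90 (GRP94), had a log2 fold change of 0.01 ± 0.12.

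The chaperones with the smallest p were Dnajb11, Pdia6 and Pdia3. Dnajb11, a J-domain partner of BiP, was at 66.3, 55.8 and 54.6 CPM in the GFP and 64.6, 72.0 and 60.7 CPM in the Kmt5b shRNA group (log2 fold change 0.16 ± 0.11, edgeR adjusted p = 0.529). Pdia6, a disulfide isomerase, was at 146, 113 and 116 CPM against 147, 146 and 126 CPM (0.16 ± 0.11, edgeR adjusted p = 0.574). In both genes GFP replicate 1 lay among the Kmt5b shRNA values and the other GFP libraries lay below them. Pdia3, the isomerase that works with Calr and Canx, was at 165, 133 and 140 CPM against 151, 167 and 156 CPM (0.11 ± 0.10). The remaining chaperones and partners, Pdia4, Dnajb9, Dnajc3, Sdf2l1, Creld2, Manf and Hyou1, had log2 fold changes from -0.09 to 0.07 and adjusted p of at least 0.753. Manf overlaps Rbm15b and Dcaf1, so its counts are less certain than the rest.

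Differences between libraries of 1 group were larger than those between the groups. GFP replicate 1 was the highest GFP library for 13 of 14 chaperones, the exception being Creld2, and Kmt5b shRNA replicate 2 was the highest of its group for 10 of 14. The summed chaperone level was 2773, 2283 and 2176 CPM in the GFP and 2453, 2678 and 2375 CPM in the Kmt5b shRNA group. Its mean was 2411 ± 318.2 (SD, n = 3) against 2502 ± 157.2 CPM (SD, n = 3), and a two-sided exact permutation test gave p = 0.7, where no test of 3 against 3 can go below 0.1. The summed level of 10 neuron markers was highest in the same 2 libraries, 8391, 6771 and 6894 CPM in the GFP and 7233, 7609 and 6755 CPM in the Kmt5b shRNA group. Its part in the chaperone values was not tested. In bulk tissue fewer cells of a type and less RNA per cell cannot be told apart.

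ER-associated degradation, in which misfolded proteins are drawn back to the cytosol for the proteasome, was represented by 4 genes. Their log2 fold changes ran from -0.30 to 0.22, none passed the adjusted threshold, and differences between these genes were not tested. Herpud1, a membrane scaffold of the degradation complex that is strongly induced by ER stress, was lower, although not past the threshold. It was at 59.8, 58.5 and 52.8 CPM in the GFP and 46.5, 50.2 and 45.4 CPM in the Kmt5b shRNA group, and the groups did not overlap. The difference on the log2 scale was -0.27 ± 0.10 (SE, edgeR adjusted p = 0.126), with a 95% interval from -0.47 to -0.06 and the smallest possible exact permutation p, 0.1. It passed with upper quartile scaling (log2 fold change -0.28, adjusted p = 0.0485) and in 0 of 6 leave-one-out fits, where the adjusted p ran from 0.11 to 0.376. Herpud1 was the member with the smallest p, and its promoter is the one that holds both ERSE-II and CARE.

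Edem1, a mannosidase-like protein that marks glycoproteins for degradation, was at 28.3, 35.6 and 43.0 CPM in the GFP libraries and 26.6, 29.4 and 31.0 CPM in the Kmt5b shRNA group. GFP replicate 1 lay inside the Kmt5b shRNA range. The difference on the log2 scale was -0.30 ± 0.13 (SE, edgeR adjusted p = 0.268), and without GFP replicate 1 it was -0.44 with an adjusted p of 0.0285, whereas without GFP replicate 3 it was -0.14 with an adjusted p of 0.74. Syvn1, the ubiquitin ligase HRD1, went the other way at 20.7, 23.2 and 21.6 against 25.5, 21.2 and 29.7 CPM (0.22 ± 0.12, edgeR adjusted p = 0.397). Kmt5b shRNA replicate 2 lay inside the GFP range, and Syvn1 overlaps Mrpl49 on the opposite strand. Sel1l, its membrane partner and the most abundant of the 4 per length, was at 305, 260 and 258 CPM against 279, 291 and 254 CPM, a log2 fold change of 0.00 ± 0.10. The ligase and its partner thus had values of unlike size, neither past the threshold.

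The sensors did not pass either. Ern1 was at 15.0, 19.4 and 18.4 CPM in the GFP and 15.4, 12.9 and 15.0 CPM in the Kmt5b shRNA group, a log2 fold change of -0.28 ± 0.13 (SE, edgeR adjusted p = 0.269). GFP replicate 1 again lay with the Kmt5b shRNA group. Eif2ak4 was at 31.1, 38.5 and 31.0 against 31.6, 28.9 and 31.8 CPM (-0.12 ± 0.11), where GFP replicate 2 stood above 5 near-equal values. Eif2ak3 differed by 0.00 ± 0.10. Atf6, the most abundant sensor per length, was at 199, 157 and 166 CPM against 191, 207 and 184 CPM (0.15 ± 0.11, edgeR adjusted p = 0.555). Xbp1 was the most abundant of these 5 per length and was at 103, 98.3 and 96.4 CPM against 95.3, 103 and 87.4 CPM (-0.06 ± 0.10). For every one of the 5 the groups overlapped.

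The ATF4 arm held the 3 largest log2 fold changes above 0 among the members, those of Atf3, Trib3 and Chac1, and 0 of its 9 genes passed the adjusted threshold. At unadjusted p under 0.05, 3 of 9 were higher and 0 lower, where 7.2% of all genes tested were higher and 17.4% were under 0.05 in either direction. With 9 genes chosen with results known, this count is a description only. Atf4 encodes the transcription factor that carries the integrated stress response. It was at 133, 88.2 and 88.2 CPM in the GFP libraries and at 131, 135 and 129 CPM in the Kmt5b shRNA group. GFP replicate 1 thus sat at the Kmt5b shRNA level, and the other 2 GFP libraries were lower and equal to each other. The difference on the log2 scale was 0.35 ± 0.14 (SE, edgeR adjusted p = 0.206). Without GFP replicate 1 it was 0.58 with an adjusted p of 0.00075, and the range with any other library left out was 0.25 to 0.37 with adjusted p of 0.295 to 0.512. Atf4 also passed with no filter on low counts (adjusted p = 0.0209). The column headers number GFP replicate 1 as S13, the other GFP libraries as S1 and S2 and the Kmt5b shRNA group as S10 to S12. What these numbers stand for is not given in the sources used here, and their part in the Atf4 values was not tested. Without GFP replicate 1, S1 and S2 stand against S10 to S12, so group and number cannot be told apart in that fit. The same holds for the values of Hspa5, Edem1 and Chac1 without GFP replicate 1.

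Chac1, a glutathione-degrading enzyme induced by ATF4, was at 8.07, 5.92 and 6.21 CPM in the GFP libraries and 9.73, 7.92 and 9.39 CPM in the Kmt5b shRNA group. As for Atf4, GFP replicate 1 was the highest GFP library, and here it exceeded Kmt5b shRNA replicate 2. Chac1 had a log2 fold change of 0.42 ± 0.17 (SE, edgeR adjusted p = 0.178), and 0.0567 was its smallest adjusted p with a library left out, without GFP replicate 1. Atf3, a stress-induced repressor of the same family, was low in all libraries, at 2.02, 1.04 and 2.17 CPM against 1.88, 3.44 and 4.89 CPM. Its spread among the Kmt5b shRNA group was wide, and replicate 1 lay within the GFP range. The log2 fold change of Atf3 was 0.93 ± 0.35 (SE, edgeR adjusted p = 0.155). Leaving out Kmt5b shRNA replicate 1 gave 1.23 (adjusted p = 0.0309) and leaving out replicate 3 gave 0.59 (adjusted p = 0.471), and Atf3 passed with no filter on low counts (adjusted p = 0.008).

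Trib3, a pseudokinase that restrains ATF4 and CHOP, was the member with the lowest level, at 24, 16 and 40 counts in the GFP and 38, 28 and 47 counts in the Kmt5b shRNA group. These are 0.359, 0.521 and 0.511 CPM against 0.668, 0.603 and 0.857 CPM. Every Kmt5b shRNA library lay above every GFP library, with a log2 fold change of 0.62 ± 0.37 (SE, edgeR adjusted p = 0.456) and a 95% interval from -0.18 to 1.43.

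The other 5 genes of this arm did not pass at adjusted or unadjusted p under 0.05. Asns, asparagine synthetase, has a CARE in its promoter and is a long-known target of ATF4. It was at 141, 101 and 109 CPM in the GFP and 115, 132 and 103 CPM in the Kmt5b shRNA group (-0.01 ± 0.13), with GFP replicate 1 the highest of the 6. Ddit3 encodes CHOP, which promotes cell death under lasting stress, and was at 22.3, 21.4 and 22.4 CPM against 21.3, 20.6 and 24.4 CPM. Its log2 fold change was 0.00 ± 0.11, and its 95% interval ran from a fold of 0.858 to 1.17. Ddit3 overlaps Mars on the opposite strand, and whether counting used strand is not given in the sources used here. Atf5, a relative of ATF4 that overlaps Nup62, had -0.17 ± 0.16. Both subunits that direct the phosphatase of eIF2, the inducible Ppp1r15a and the constitutive Ppp1r15b, had 0.04 ± 0.13 and 0.14 ± 0.10. The summed level of the 9 genes was 337.3 ± 56.0 CPM in the GFP and 375.3 ± 19.3 CPM in the Kmt5b shRNA group (SD, n = 3 each, two-sided exact permutation p = 0.4).

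**Figure D4:**
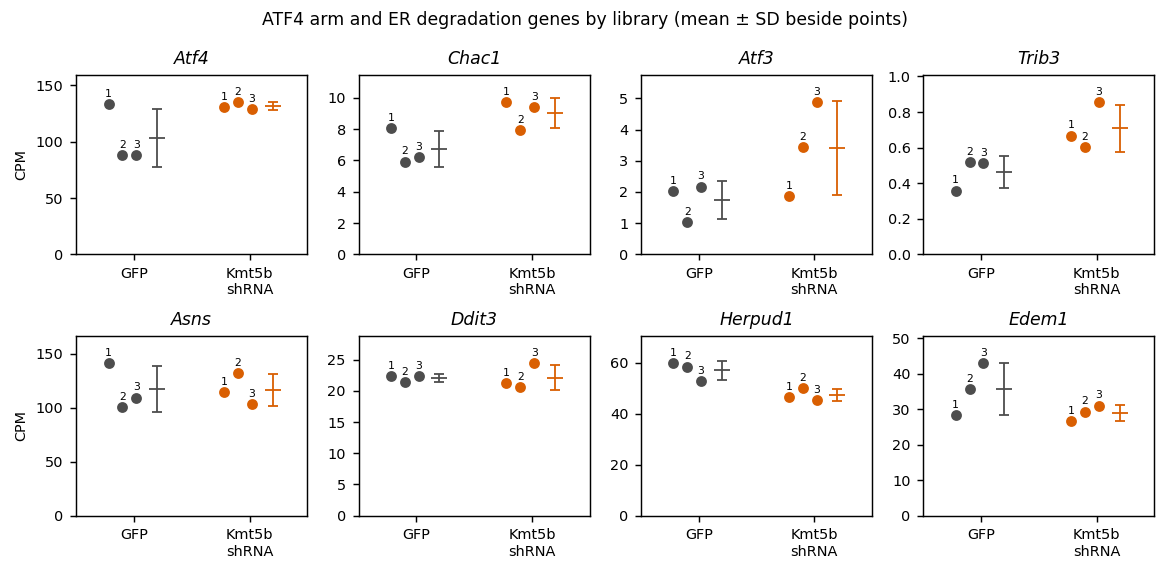
CPM of 8 genes in each library (vertical axes, from 0), with replicate numbers above the points and the mean ± SD (n = 3) beside them, GFP in grey and Kmt5b shRNA in orange. For Atf4, Chac1 and Asns the highest GFP point is replicate 1, and the groups are apart for Trib3 and Herpud1.

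A further 163 genes of the pathway were listed outside the 32, of which 162 were in the files and 160 were tested. In the edgeR fit 10 passed the adjusted threshold as higher and 2 as lower, with a median log2 fold change of -0.02. These 12 are 7.5% of the 160, where 8.46% of all genes tested passed, 2.77% higher and 5.69% lower. Sequence is shared with other genes by 8 of the 12. When only genes without shared sequence were fitted, 0 of 121 passed, where 0.709% of all genes in that fit did. With copies added to parents, where 2.76% of all genes passed, 3 of the 160 did: 2 higher, Sec61g and Eif4ebp1, and 1 lower, Bloc1s1, which had not passed before and is named here after its values were seen. Bloc1s1, whose mRNA IRE1 is known to cut, had a log2 fold change of -0.85 with copies added (edgeR adjusted p = 0.0366) and -0.55 without (adjusted p = 0.158).

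Among degradation genes, Vcp, the ATPase that pulls substrates from the membrane, was at 71.1 ± 8.77 CPM in the GFP and 217.1 ± 17.1 CPM in the Kmt5b shRNA group (SD, n = 3 each). Its log2 fold change of 1.61 became 0.34 when the counts of its copy were added (edgeR adjusted p = 0.224). That of the ubiquitin enzyme Ube2j2 went from 0.72 to 0.28 (edgeR adjusted p = 0.237). The Vcp copy held 12057, 3855 and 12510 reads across GFP replicates 1 to 3. Across Kmt5b shRNA replicates 1 to 3 it held 3788, 3910 and 3597. GFP replicate 2 was the smallest library. For the Ube2j2 copy these were 542, 246 and 545 against 9, 5 and 1. Relative to library size, counts on these copies thus differed between the groups. Assignment of reads and expression of the copies cannot be told apart here, so 1.61 and 0.72 cannot be read as transcript changes alone. The cause was not tested. Derl3, a channel protein that shares no sequence, was lower at 1.90, 4.88 and 3.62 CPM in the GFP against 1.76, 1.72 and 1.31 CPM in the Kmt5b shRNA group (log2 fold change -1.10 ± 0.31, edgeR adjusted p = 0.0395). Derl3 kept its call in 1 of 6 leave-one-out fits, without GFP replicate 1, and had an adjusted p of 0.225 without GFP replicate 2. The summed level of 10 plasma cell markers, a cell type rich in ER, was 314, 1442 and 1289 CPM in the GFP libraries and 47.6 to 69.0 CPM in the Kmt5b shRNA group. GFP replicate 1 was the lowest GFP library for both. Igkc, Ighm, Igha and Jchain were the largest parts of this sum in the GFP libraries, and the groups overlapped for Sdc1 and Fkbp11. Of these markers 0 of 10 passed, none was at 0 in every library, and their part in the Derl3 values was not tested. Among the members, Edem1 and Ern1 were likewise lowest in GFP replicate 1 of the 3 GFP libraries and near the Kmt5b shRNA group there. Creld2, Syvn1 and Trib3 were also lowest there among the GFP libraries, with log2 fold changes of -0.04, 0.22 and 0.62. GFP replicate 1 was the highest GFP library for 23 of the 32 members, Herpud1 and Xbp1 among them. The part of these markers in the Edem1, Ern1 and Herpud1 values was not tested either.

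Of the translocon genes, Sec61g, a subunit of the channel into the ER, was at 6.27 ± 0.662 CPM in the GFP and 23.7 ± 1.04 CPM in the Kmt5b shRNA group (SD, n = 3 each). Its log2 fold change was 1.91 ± 0.12, and 0.70 with its 8 copies added (edgeR adjusted p = 0.00182). The signal peptidase subunit Spcs1 was lower by -0.36 ± 0.11 (edgeR adjusted p = 0.0488) and passed in 2 of 6 leave-one-out fits. Among subunits of eIF2 itself, which have copies, Eif2s3x went from 1.87 to 0.19 with copies added. Eif2s2 went from 0.61 to 0.23, and neither passed then. Eif2s3x copies held 1368 to 3045 counts per GFP library but 152 to 196 per Kmt5b shRNA library. For the Eif2s2 copy these were 554 to 1315 and 379 to 416, and for the Sec61g copies 303 to 843 and 230 to 271. Creb3l1, an ER membrane transcription factor related to ATF6, was low, at 0.690 ± 0.309 CPM in the GFP and 1.58 ± 0.194 CPM in the Kmt5b shRNA group (SD, n = 3 each). Its log2 fold change was 1.26 ± 0.35 (edgeR adjusted p = 0.0325), and it passed in 1 of 6 leave-one-out fits, without GFP replicate 2. No other chaperone or folding enzyme passed among 35, and the smallest p was that of the calcium-binding protein Rcn1 (0.32 ± 0.10, edgeR adjusted p = 0.0545), which passed with DESeq2 (adjusted p = 0.0428).

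Among 42 other ATF4 targets, 4 (9.52%) were higher and 0 lower, where 8.46% of all genes passed in either direction and 2.77% were higher, and the median log2 fold change was 0.01. Eif4ebp1, a translation inhibitor, was at 3.63, 4.10 and 4.33 CPM in the GFP and 7.43, 6.71 and 8.59 CPM in the Kmt5b shRNA group. Its log2 fold change was 0.91 ± 0.18 (edgeR adjusted p = 0.00222), it passed in 6 of 6 leave-one-out fits, and with copies added it was 0.90 (adjusted p = 0.00867). Because it shares sequence, it was not among the genes fitted without such sharing. Gdf15, a secreted stress hormone, was at 0.254, 0.260 and 0.230 CPM against 0.843, 0.366 and 1.59 CPM (1.92 ± 0.50, edgeR adjusted p = 0.0233), and kept its call only without Kmt5b shRNA replicate 2 when single libraries were left out. Sesn2, a stress-induced regulator of growth signalling named after its values were seen, was at 10.8, 10.8 and 11.2 CPM against 14.1, 13.4 and 17.0 CPM (0.44 ± 0.13, edgeR adjusted p = 0.0455). Sesn2 likewise passed only without Kmt5b shRNA replicate 2, and among genes without shared sequence Gdf15 and Sesn2 had adjusted p of 0.126 and 0.144. Derl3, Spcs1, Creb3l1, Gdf15 and Sesn2 have no copies, and when the copies of other genes were added they had adjusted p of 0.0642 to 0.113. Phgdh, the first enzyme of serine synthesis, was higher by 0.70 (edgeR adjusted p = 0.000402). With its 15 copies added the value was instead -0.16 (edgeR adjusted p = 0.6). Those copies held 602 to 1492 counts per GFP library but 40 to 46 per Kmt5b shRNA library.

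**Figure D5:**
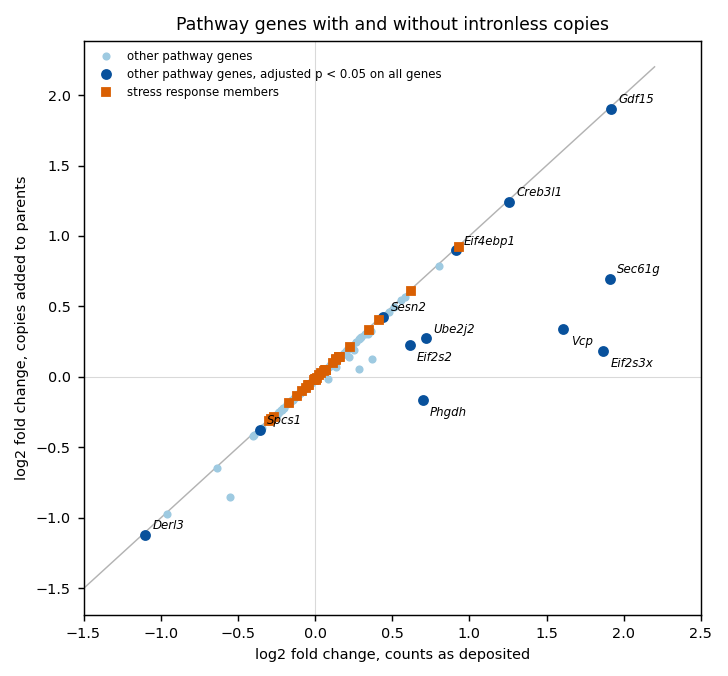
The log2 fold change (Kmt5b shRNA against GFP) with counts as deposited (horizontal axis) and with copies added to their parent genes (vertical axis) for the 32 members (squares) and 160 other pathway genes (circles, dark where called), with the line of equality. The members lie on the line, and Vcp, Eif2s3x, Sec61g, Phgdh, Eif2s2 and Ube2j2 lie below it.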

How the data were processed

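Ribosome-depleted total RNA from prefrontal cortex was sequenced in 6 stranded libraries. The labels' protocols name Cutadapt for trimming and TopHat2 for alignment against RefSeq mRNAs. The submitters' processing notes instead list STAR, with featureCounts, DESeq2 and the mm10 build. Each deposited file holds unnormalized read counts by gene symbol for 1 library, and the counting options are not given in the sources used here.

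The test was that of edgeR 4.0.16 (R 4.3.3) over the 24419 genes kept by filterByExpr, with TMM scaling, the robust quasi-likelihood fit and Benjamini-Hochberg adjustment over all of them. SE was obtained from the log2 fold change and its F statistic, and intervals are at 95%. Lengths and positions came from GENCODE M21 (GRCm38, the assembly of mm10), in which 53749 symbols were found. Intronless copies were found by aligning 1 transcript per gene to all others with BLAST+ 2.17.0 (90% identity over 100 nucleotides, 50% of the copy covered). The test was also run on simulated counts, and the outcome is not given here. Alternatives used DESeq2 1.42.0 and limma 3.58.1.

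The members and lists were chosen with earlier results of these data known. Values in every library are given for the 3 members of smallest p and the 2 of highest level per length in each list. Hspa5, Ddit3 and Trib3 were added. Outside the members, up to 3 called genes per list and direction are named, or the gene of smallest p.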

Additional observations from a re-analysis of the deposited data

How the results depend on the processing

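The count of members called was 0 in the fits with DESeq2, RLE scaling, a minimum count of 50, copies added, genes sharing no sequence, protein-coding genes only, limma voom and the replicate block. It was 1 with upper quartile scaling, 2 with no filter on low counts, and 0 to 2 with a library left out. With copies added it was 0 to 2 with a library left out, and 0 with DESeq2 and with the replicate block. The 12 other pathway genes called became 18 with no filter on low counts, 15 with DESeq2, 12 with RLE scaling, 11 with a minimum count of 50, 10 with upper quartile scaling, 8 with limma voom, 8 with protein-coding genes only, 3 with copies added, 0 in genes sharing no sequence, and 7 to 12 with a library left out. No clear pairing by replicate number was seen: deviations of same-numbered libraries correlated at -0.03, -0.01 and 0.22, and not every library correlated best with its own number. The value of 0.22, for the replicates numbered 3, was the highest between the groups. With 3 libraries per group these values cannot exclude a pairing. The block fit called 0 members and 12 other pathway genes.

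Among members, signs changed for 6 genes, all with values near 0, under settings that kept every library. Log2 fold changes under upper quartile scaling, copies added and protein-coding genes only were -0.0041, -0.0041 and -0.002 for Hsp90b1, -0.0073, -0.0216 and -0.0049 for Dnajb9, -0.016, -0.0147 and -0.0135 for Sel1l, -0.0132, -0.011 and -0.0102 for Eif2ak3, and -0.0134, -0.0117 and -0.0102 for Ddit3. In genes sharing no sequence they were -0.0071 for Sel1l, -0.0036 for Eif2ak3 and -0.0037 for Ddit3, which had -0.0033 with limma voom. Asns had 0.0062 with DESeq2 and 0.0032 with RLE scaling, and Phgdh -0.16 with copies added. With a library left out, values ran from -0.0798 to 0.1255 for Hsp90b1, -0.1299 to 0.1036 for Calr, -0.0195 to 0.1628 for Canx, -0.0868 to 0.0648 for Dnajb9, -0.1217 to 0.0398 for Creld2, -0.0157 to 0.2064 for Manf, -0.0244 to 0.0818 for Hyou1, -0.0426 to 0.0851 for Sel1l, -0.0391 to 0.0793 for Eif2ak3, -0.1204 to 0.0067 for Xbp1, -0.0648 to 0.0513 for Ddit3, -0.1062 to 0.1513 for Asns and -0.0637 to 0.1073 for Ppp1r15a. The cause of these changes was not tested. Counts of 16 to 47 limit Trib3, and 32 to 268 limit Atf3.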
